A study of Mus musculus with 6 samples.

Results

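The transcripts described here are those of 10 immediate early transcription regulators in cardiac macrophages of mice after myocardial infarction: Fos, Fosb, Fosl2, Jun, Junb, Jund, Atf3, Egr1, Egr2 and Ier2. They were taken by gene symbol from the 34745 genes of the deposited table, and each symbol had 1 row. The set was chosen with earlier results of these data known. The study compared Lgmn KO mice, which lack the lysosomal protease legumain, with wild-type (WT) mice, in 3 libraries each (Lgmn KO replicates 1, 2 and 4, WT replicates 1, 2 and 3). All mice were C57BL/6 and 8 weeks old, and the series places both groups after infarction. The labels name coronary ligation and sham surgery for the animals without saying which each had, and they give neither the time after surgery, the allele that removes legumain, nor whether it was removed in every cell. A mix of collagenase, elastase and DNase freed the cells from the heart in 1 h at 37 °C, and the sort used antibodies to CD45 (leukocytes), CD64 (macrophages) and CD11b (myeloid cells) with a dye for dead cells. Whether the libraries are from separate animals is not in the labels, and the p-values below therefore cover the spread among libraries only, part of which may be technical.

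Immediate early genes are switched on within minutes of a signal from preformed kinases and transcription factors, without new protein synthesis, and their mRNAs decay quickly. Fos and Jun proteins are leucine zipper proteins that pair to form AP-1, which binds DNA at TGANTCA sites. Jun proteins can pair with each other, whereas Fos proteins need a Jun partner. ATF3 is a related zipper protein that binds cyclic AMP response elements and restrains inflammatory genes in macrophages. EGR1 and EGR2 are zinc finger factors that bind GC-rich sites, and IER2 is a nuclear protein induced with them. Several of these genes are also known to be induced while tissue is digested with warm enzymes, so their level in sorted cells can hold a part that arose after the heart was removed. Both genotypes were digested in the same way, and the part that digestion plays in these levels was not tested.

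The promoters of 4 members are shown because 3 of them (Fosl2, Junb and Atf3) had Lgmn KO and WT values that did not overlap. The values of Fos, the best known of the set, did overlap. Lgmn KO and WT values were also apart for 23.7% of the 12546 genes tested, so this alone does not set those members apart. Each line is the stretch of 250 bases before the RefSeq start site (build GRCm38.p6), 5′ to 3′ on the strand of the gene. Capitals mark TGACG on either strand, which is the core of the cyclic AMP response element, and GCGNGGGCG on either strand, the EGR site.
Fosl2, chr5:32136222-32136471, plus strand: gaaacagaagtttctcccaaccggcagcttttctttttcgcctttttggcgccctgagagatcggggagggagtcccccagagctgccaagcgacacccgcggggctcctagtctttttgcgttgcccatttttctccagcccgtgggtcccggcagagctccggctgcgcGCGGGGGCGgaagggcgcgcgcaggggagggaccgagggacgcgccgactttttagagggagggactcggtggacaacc
Junb, chr8:84978749-84978998, minus strand: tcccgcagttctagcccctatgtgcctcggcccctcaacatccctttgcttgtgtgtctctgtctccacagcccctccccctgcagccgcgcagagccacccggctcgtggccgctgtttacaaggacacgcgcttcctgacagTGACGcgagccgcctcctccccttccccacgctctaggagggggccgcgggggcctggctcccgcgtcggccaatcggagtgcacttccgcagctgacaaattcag
Atf3, chr1:191183334-191183583, minus strand: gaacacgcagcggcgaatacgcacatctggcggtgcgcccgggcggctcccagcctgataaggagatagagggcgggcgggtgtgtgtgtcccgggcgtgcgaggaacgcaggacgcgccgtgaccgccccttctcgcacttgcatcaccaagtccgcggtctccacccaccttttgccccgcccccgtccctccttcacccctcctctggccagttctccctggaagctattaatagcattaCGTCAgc
Fos, chr12:85473640-85473889, plus strand: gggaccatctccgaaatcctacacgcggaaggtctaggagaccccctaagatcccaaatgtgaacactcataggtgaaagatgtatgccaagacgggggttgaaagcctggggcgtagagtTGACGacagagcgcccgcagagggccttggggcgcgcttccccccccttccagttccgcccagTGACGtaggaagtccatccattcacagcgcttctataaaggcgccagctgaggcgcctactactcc

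RefSeq promoters were matched for 8 of the 10 members, all but Egr1 and Ier2. The first listed window of each gene was searched on both strands. TGACG was found in 4 of the 8 (Atf3, Fos, Fosb and Junb) and in 17.9% of 27025 promoter windows of the same length. GCGNGGGCG was found in 2 of the 8 (Fosb and Fosl2) and in 4.65% of all windows. The 4 windows shown are 58.4% to 66.4% G or C, against a median of 52% over all windows. The shares were not matched for this. The full AP-1 site TGANTCA, the full response element TGACGTCA and the CArG box, to which serum response factor binds, were in 0 of the 8 and in 6.87%, 1.62% and 1.40% of all windows. TGACG lies within TGACGTCA and was searched after the full sites had given no match. In Fos it started 129 and 66 bases before the start site, in Junb 106 bases and in Atf3 7 bases before it. The Atf3 and Fosl2 windows belong to start sites inside the genes, which the table places at chr1:191170296-191218039 and chr5:32135801-32157842. These matches describe the letters in these windows and say nothing of binding. Sites farther from the start sites were not searched, so a count of 0 does not mean that a gene lacks the site.

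Total counts per library lay between 19546253 and 24086976, and 12546 genes passed the filter on low counts. Lgmn was at 78.7, 88.5 and 83.5 CPM (read counts scaled to a common depth with TMM factors) in Lgmn KO, against 2205, 2692 and 2277 CPM in WT (log2 fold change -4.84, edgeR adjusted p = 3.23e-06), so the libraries match their labels. All 9 macrophage markers were found, and their sum was 5513 to 6410 CPM in Lgmn KO, against 5701 to 7382 CPM in WT. Cd68 made up the larger part of that sum, and the other 8 markers held 2233 to 2597 CPM in Lgmn KO, against 2590 to 4268 CPM in WT. Of the 9 markers, 7 had negative log2 fold changes (median of the list -0.51), and all 7 had an unadjusted p under 0.05. Such a p was found for 17.5% of all tested genes in edgeR. C1qa, a complement gene of resident macrophages, passed the adjusted threshold, with 32.1 ± 5.80 CPM in Lgmn KO, against 165.6 ± 89.1 CPM in WT (SD, n = 3 each; edgeR adjusted p = 0.0486). Markers of other cells were present at lower levels, and some differed with genotype. The 6 fibroblast markers summed to 42.0 to 109 CPM in Lgmn KO, against 124 to 171 CPM in WT, with none at 0 throughout. The 6 dendritic cell markers summed to 3.21 to 5.09 CPM in Lgmn KO, against 5.31 to 15.6 CPM in WT, with none at 0 throughout. Among 11 T and NK cell markers, 1 of them at 0 throughout, Il7r made up nearly the whole sum (1136 to 1362 CPM in Lgmn KO with it, against 819 to 1058 CPM in WT), and the others held 0.801 to 1.38 CPM in Lgmn KO, against 3.36 to 8.38 CPM in WT. Among 6 endothelial markers, 2 of them at 0 throughout, those other than Kdr held 1.43 to 1.92 CPM in Lgmn KO, against 8.22 to 12.2 CPM in WT. The 8 neutrophil markers summed to 200.3 to 231 CPM in Lgmn KO, against 169 to 199 CPM in WT. Csf3r made up most of that sum, and its own values overlapped between genotypes (edgeR adjusted p = 0.389). The other neutrophil markers held 20.1 to 22.0 CPM in Lgmn KO, against 16.8 to 19.4 CPM in WT. B cell, cardiomyocyte and erythroid markers summed to at most 5.38 CPM in any library. Their part in the results below was not tested, and in these bulk libraries fewer cells of a type and less RNA per cell cannot be told apart.

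Per length of transcript, Atf3 was the most abundant of the 10 genes, Jun the next, and Fosb was barely detected. Atf3 stood at 258 ± 8.71 CPM per kilobase in Lgmn KO and 203 ± 28.7 in WT (SD, n = 3 each). Jun followed at 90.9 ± 3.97 CPM per kilobase in Lgmn KO and 91.5 ± 2.89 in WT. These genes were separated from each other and from all below them in every library. Junb at 31.2 ± 2.82, Egr2 at 30.6 ± 3.40, Fos at 22.5 ± 2.05 and Jund at 19.1 ± 2.61 CPM per kilobase formed a middle range in Lgmn KO, in which Junb and Egr2 overlapped, as did Fos and Jund. In WT these 4 genes stood at 42.1 ± 2.62, 31.4 ± 1.53, 24.8 ± 5.71 and 17.8 ± 0.313 CPM per kilobase, and there Junb was above Egr2 in every library. Below them came Ier2, with 10.7 ± 1.57 CPM per kilobase in Lgmn KO and 13.6 ± 1.58 in WT, and then Fosl2, with 4.43 ± 0.329 in Lgmn KO and 6.12 ± 0.306 in WT. Egr1 was at 1.14 ± 0.317 CPM per kilobase in Lgmn KO and 1.72 ± 0.319 in WT, so within the EGR pair Egr2 made up 95.6% to 97.5% in Lgmn KO and 94.0% to 95.9% in WT. The deposited FPKM values put Atf3 and Jun on top as well, but they divide by other lengths: for Egr1 the implied length is 7520 bases, which is the sum of its 2 annotated transcripts, although its merged exons span 4484 bases. On that scale Egr2 averaged 19.0 FPKM in Lgmn KO and 19.8 FPKM in WT, close to Jund with 19.0 FPKM in Lgmn KO and 17.9 FPKM in WT. Fos had the lower means of 13.9 FPKM in Lgmn KO and 15.4 FPKM in WT, although its WT range overlapped that of Jund. On both scales the place of Jund rests on its span of 2878 bases in the table, where GENCODE M21 gives it 1668.

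**Figure D1:**
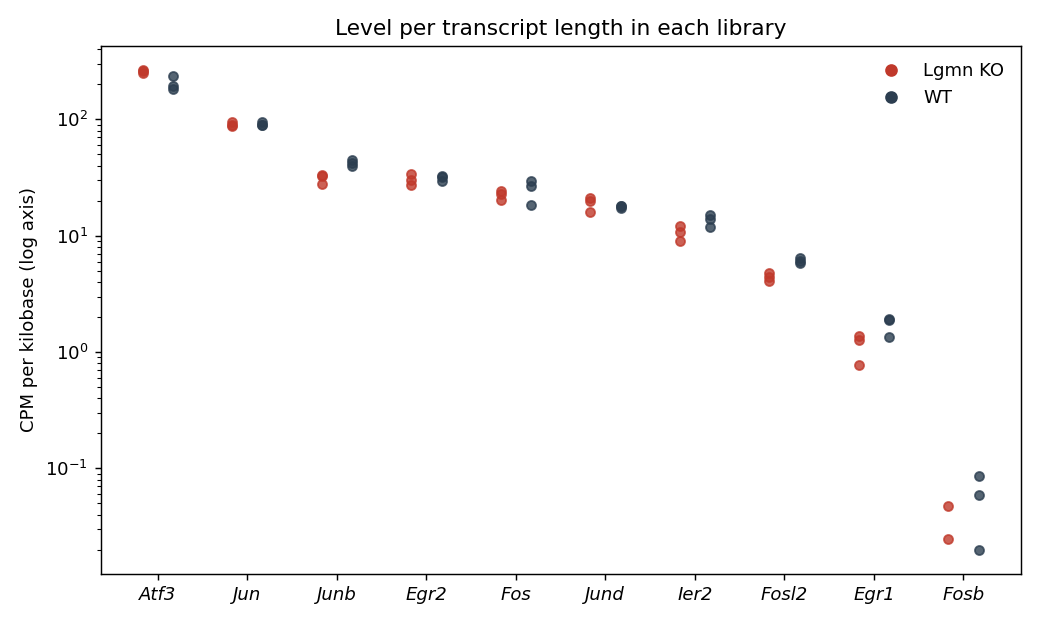
Level of each of the 10 genes in CPM per kilobase (log axis), with 1 point per library and Lgmn KO left of WT within each gene. Atf3 and Jun lie above all others in every library, Egr1 lies well below Egr2, and Fosb is near the detection limit (Lgmn KO replicate 4 had 0 Fosb counts and has no point).

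Among the Fos family, Fosl2 was lower in every Lgmn KO library and Fos overlapped between genotypes. Fosl2, which encodes Fra-2 and lies at chr5:32135801-32157842 on the plus strand, was at 39.7, 46.1 and 42.8 CPM in Lgmn KO replicates 1, 2 and 4 and at 56.9, 62.5 and 58.2 CPM in WT replicates 1, 2 and 3. The highest Lgmn KO library was thus below the lowest WT library, and each group was tight. The log2 fold change, Lgmn KO divided by WT, was -0.47 with a standard error of 0.08 and a 95% interval from -0.66 to -0.27, that is 0.724 times the WT level, and the adjusted p over all tested genes was 0.0555 (edgeR's quasi-likelihood test, adjusted by Benjamini-Hochberg). It therefore just missed the threshold of 0.05. DESeq2 gave it an adjusted p of 0.00188, limma-voom with sample weights 0.0358, edgeR without a low-count filter 0.0388 and edgeR with library sizes only 0.0483. With RLE size factors, another scaling, its edgeR adjusted p was 0.0597, and with the replicate number as a block it was 0.225. Without WT replicate 1 its edgeR adjusted p was 0.0325, and without any other library it was 0.14 to 0.162. In the authors' deposited table its q-value is 0.0310, with a log2 fold change of -0.48 and no mark as up or down.

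Fos, the partner that gives AP-1 its classic composition, was at 47.6, 57.0 and 54.1 CPM in Lgmn KO and at 43.3, 69.1 and 62.9 CPM in WT. WT replicate 1 was the lowest of all 6 libraries and the other WT libraries were the highest. The log2 fold change was -0.14 with a standard error of 0.17 (edgeR adjusted p = 0.723), and its 95% interval from -0.54 to 0.25 leaves room for a lower or a higher level. The Fos value rested on single libraries: it was -0.32 without WT replicate 1, -0.0075 without WT replicate 2, -0.09 without WT replicate 3 and -0.06 without Lgmn KO replicate 1. Fosb, whose protein is a strong transactivator in neurons, had 6, 3 and 0 counts in Lgmn KO, against 11, 8 and 3 counts in WT. It did not pass the low-count filter and was not tested, and the 0 counts of Lgmn KO replicate 4 allow up to 0.141 CPM, which covers counting error only. Of the summed CPM per kilobase of Fos, Fosb and Fosl2, Fosl2 made up 16.1% to 16.8% in Lgmn KO and 18.0% to 24.1% in WT. Fos made up nearly all of the remainder of that sum, which leaves out the family gene Fosl1. Fosl1, which encodes Fra-1 and is named outside the rule for list genes, had 21, 35 and 48 counts in Lgmn KO, against 87, 67 and 40 counts in WT, and these overlapped (edgeR adjusted p = 0.366).

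**Figure D2:**
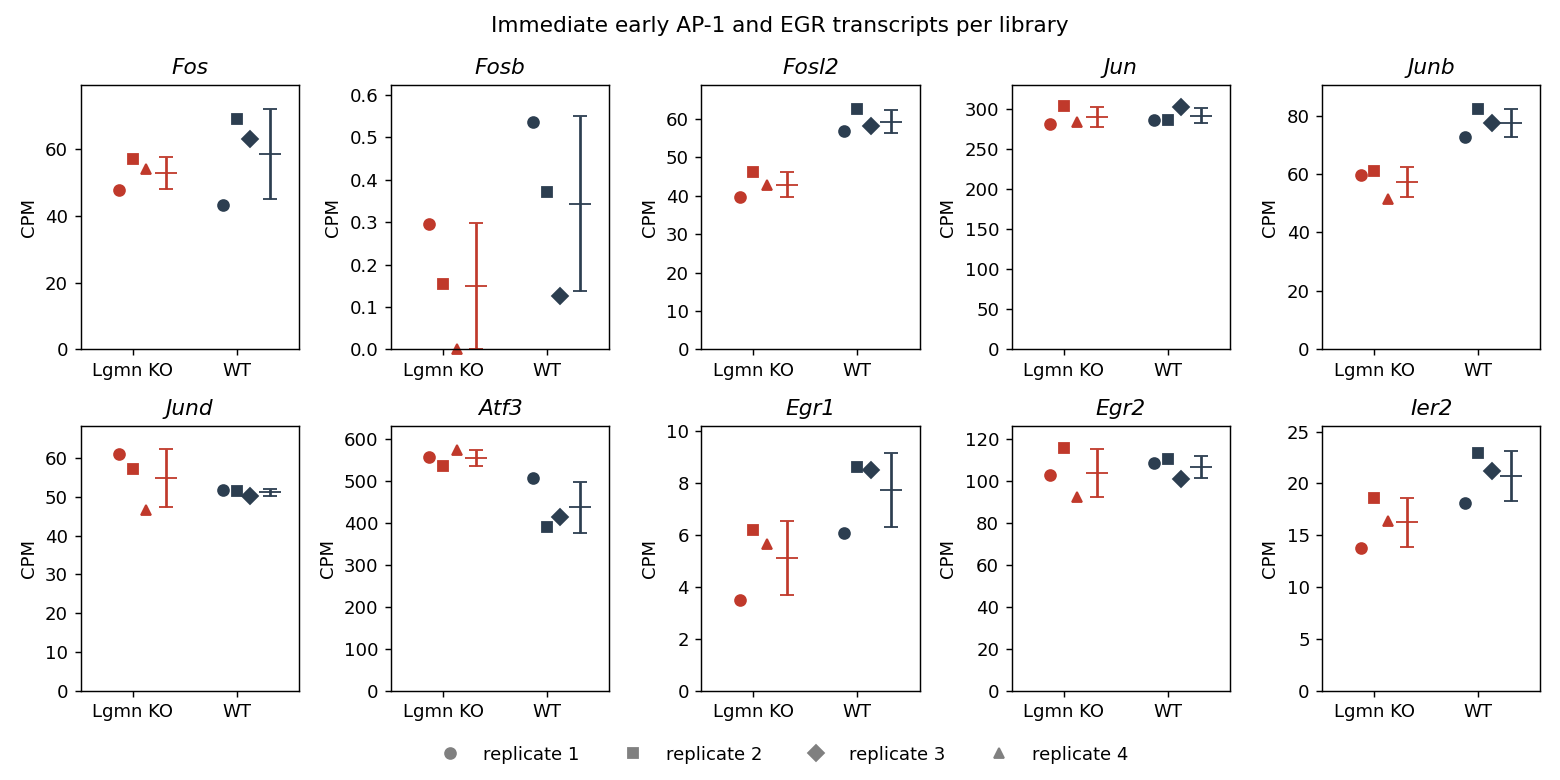
CPM of each gene in each library (symbols give the replicate number, bars the mean ± SD of 3 libraries; each panel has its own axis from 0). Lgmn KO points lie wholly below WT points for Fosl2 and Junb, wholly above them for Atf3, and overlap them for the other 7 genes.

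In the Jun family Junb was lower in every Lgmn KO library, whereas the Jun values of both genotypes lay in the same narrow range. Junb encodes a Jun protein that often activates more weakly than Jun and can limit it, and the table places it at chr8:84976909-84978748 on the minus strand. It was at 59.6, 61.0 and 51.4 CPM in Lgmn KO and at 72.6, 82.2 and 77.3 CPM in WT. The groups did not overlap, and the gap between them was wider than the range of either group. The log2 fold change was -0.43 with a standard error of 0.09 and a 95% interval from -0.64 to -0.22, or 0.741 times the WT level (edgeR adjusted p = 0.0759). DESeq2 gave Junb an adjusted p of 0.00638, limma-voom with sample weights 0.0423 and edgeR without WT replicate 1 0.0405. Without a low-count filter it was 0.0529, and without any library other than WT replicate 1 it was 0.166 to 0.2. In edgeR it was 0.0698 with library sizes only, 0.0762 with RLE size factors and 0.355 with the replicate block. The authors' deposited table gives Junb a q-value of 0.0537.

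Jun was at 281, 304 and 284 CPM in Lgmn KO and at 287, 286 and 303 CPM in WT. Its log2 fold change was -0.01 with a standard error of 0.07 (edgeR adjusted p = 0.957), and the 95% interval from -0.16 to 0.14 limits a difference to between 0.893 and 1.10 times the WT level. Jun is the family's most signal-responsive activator and had the smallest standard error of the 9 tested genes. Jund, the member that is expressed most constantly in many cell types, was at 60.9, 57.2 and 46.5 CPM in Lgmn KO and at 51.9, 51.6 and 50.2 CPM in WT, so the WT libraries lay inside the Lgmn KO range. Its log2 fold change was 0.10 with a 95% interval from -0.15 to 0.35 (edgeR adjusted p = 0.695). Junb made up 22.8%, 22.3% and 21.0% of the family's summed CPM per kilobase in Lgmn KO and 26.8%, 29.3% and 27.2% in WT. Jun made up 62.2%, 64.3% and 66.9% in Lgmn KO and 61.0%, 58.9% and 61.5% in WT. Both shares were apart between the genotypes, Junb lower and Jun higher in Lgmn KO. They depend on the 2878-base span used for Jund, and other lengths were not tried. Shares of 1 family depend on each other, so a lower Junb raises the Jun share, while the Jun level itself overlapped. Jun, Junb, Jund and Ier2 were counted over a single unspliced stretch. In GENCODE M21 an antisense gene shares 232 bases with Jun (Junos, 374 counts in all libraries against 37002 for Jun) and another shares 877 bases with Jund (Gm11175, 35 counts against 6725). The sources used here do not say whether counting used strand, and without it reads of such a pair cannot be told apart.

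Atf3 was the member with higher values in every Lgmn KO library. It was at 557, 536 and 573 CPM in Lgmn KO and at 507, 390 and 413 CPM in WT. The Lgmn KO libraries were close together, with a standard deviation of 18.8 CPM, and the WT libraries were spread, with 61.8 CPM, because WT replicate 1 lay near the Lgmn KO range. The log2 fold change was 0.35 with a standard error of 0.10 and a 95% interval from 0.10 to 0.59, or 1.27 times the WT level (edgeR adjusted p = 0.152). DESeq2 gave Atf3 an adjusted p of 0.0507 and limma-voom 0.0529. In edgeR the other scalings, the fit without a low-count filter and the replicate block gave 0.129 to 0.481. Without WT replicate 1 the log2 fold change was 0.47 and passed (edgeR adjusted p = 0.0184), and without any other library the adjusted p was 0.258 to 0.348. Atf4, a related factor that induces Atf3 in the integrated stress response, was at 336 ± 10.8 CPM in Lgmn KO, against 264 ± 22.0 CPM in WT (SD, n = 3 each). Its log2 fold change of 0.35 did not pass either (edgeR adjusted p = 0.0856).

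Of the EGR factors, Egr1 had lower mean counts in Lgmn KO and Egr2 had an interval on both sides of 0. Egr1, a rapid responder to growth factors, had 71, 121 and 120 counts in Lgmn KO, against 125, 186 and 204 counts in WT, or 3.50, 6.18 and 5.66 CPM against 6.08, 8.61 and 8.51 CPM. Lgmn KO replicate 2 was slightly above WT replicate 1, so the groups overlapped at their edges. The log2 fold change was -0.60 with a standard error of 0.25 and a 95% interval from -1.17 to -0.02 (edgeR adjusted p = 0.269), the widest interval of the 9 genes at the lowest counts. Egr2, which takes part in the differentiation and alternative activation of macrophages, was at 103, 116 and 92.6 CPM in Lgmn KO and at 109, 111 and 101 CPM in WT. Its log2 fold change was -0.04, with a 95% interval from -0.26 to 0.18 (edgeR adjusted p = 0.874). Nab1 and Nab2, corepressors that bind EGR proteins, had log2 fold changes of -0.11 and -0.18 (edgeR adjusted p = 0.758 and 0.414). Egr3, a relative that shares the EGR site, had 0, 11 and 4 counts in Lgmn KO, against 10, 21 and 7 counts in WT, and Egr4 had 0 counts in all libraries. Ier2 was at 13.8, 18.6 and 16.4 CPM in Lgmn KO and at 18.2, 22.9 and 21.2 CPM in WT, again with Lgmn KO replicate 2 just above WT replicate 1. The log2 fold change of Ier2 was -0.35 with a 95% interval from -0.69 to -0.02 (edgeR adjusted p = 0.264).

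**Figure D3:**
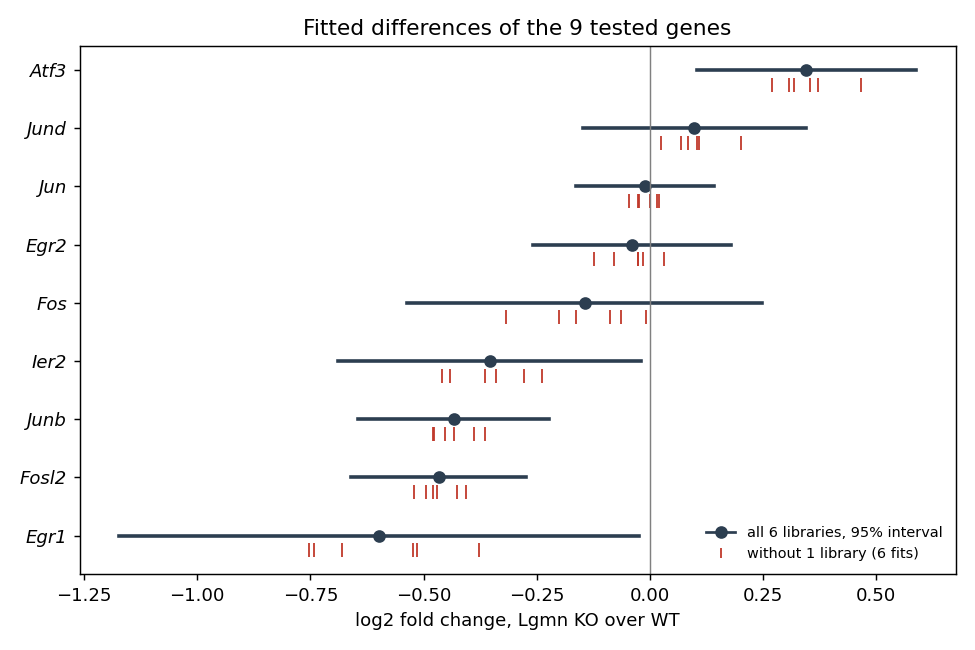
Log2 fold change, Lgmn KO divided by WT, for the 9 tested genes (points) with the 95% interval of the edgeR fit (lines) and the value of each fit without 1 library (red ticks). The intervals of Fosl2, Junb, Egr1 and Ier2 lie below 0 and that of Atf3 above 0 before adjustment for 12546 genes, while those of Fos, Jun, Jund and Egr2 span 0.

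Of the 10 genes 9 were tested and 0 passed an adjusted p of 0.05 in edgeR's quasi-likelihood test, where 0.789% of all 12546 tested genes passed. Of these genes 39 (0.311%) were higher and 60 (0.478%) lower in Lgmn KO, or 47 higher and 118 lower when scaled by library size only. That total depended on single libraries and lay between 6 and 639 when each was left out, as given library by library in the closing section. At an unadjusted p under 0.05 there were 5 of the 9, 1 higher (Atf3) and 4 lower (Fosl2, Junb, Egr1 and Ier2), against 17.5% of all tested genes. DESeq2 called 2 of the 9 (Fosl2 and Junb), where it called 5.56% of the genes it tested, and limma-voom with sample weights called the same 2 genes, with 2.71% of all. Lgmn KO and WT values did not overlap for 3 of the 9, and for 23.7% of all tested genes. In the lower direction this held for 2 members, against 13% of all genes, and in the higher direction for 1, against 10.7%. The median log2 fold change of the 9 was -0.14, and that of all tested genes was -0.002.

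The wider set of 50 other immediate early genes contained 48 that were tested, of which 1 rose and 0 fell. Plk2, a stress-responsive polo-like kinase, rose in Lgmn KO, with 511 ± 38.5 CPM in Lgmn KO, against 358 ± 17.3 CPM in WT (SD, n = 3 each; log2 fold change 0.52, edgeR adjusted p = 0.041). It lost this call without any 1 library other than WT replicate 1, with edgeR adjusted p between 0.0879 and 0.161. Zfp36l1, which encodes a protein that promotes mRNA decay, was at 10.5, 15.0 and 12.4 CPM in Lgmn KO and at 25.4, 62.7 and 52.4 CPM in WT (log2 fold change -1.89, edgeR adjusted p = 0.0519). Trib1, a pseudokinase that directs degradation of C/EBP proteins, had a log2 fold change of -0.87 (edgeR adjusted p = 0.0555). The most abundant of the list, the kinase gene Sgk1, had one of 0.45 (edgeR adjusted p = 0.187), and Zfp36l2, a relative of Zfp36l1, one of 0.17 (edgeR adjusted p = 0.340). The median over the 48 was -0.22, with 20 positive and 28 negative values, and 21 had an unadjusted p under 0.05 (7 higher, 14 lower). Over all tested genes, edgeR called 0.789% and 17.5% had an unadjusted p under 0.05. DESeq2 called 10 of the 48, where it called 5.56% of the genes it tested.

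Other leucine zipper genes that can pair with AP-1 proteins or share their sites were all tested, and 0 of 28 passed in edgeR's quasi-likelihood test (12 at an unadjusted p under 0.05, and 3 by DESeq2). Over all genes these shares were 0.789%, 17.5% and 5.56%, which also stand beside the kinase counts below. Maf, a macrophage lineage factor, was at 71.1 ± 8.48 CPM in Lgmn KO, against 127 ± 32.2 CPM in WT (SD, n = 3 each; edgeR adjusted p = 0.0862). Batf, which pairs with Jun proteins, had a log2 fold change of -0.58 (edgeR adjusted p = 0.108). The abundant Cebpa had one of -0.07 and Nfe2l2, the regulator of the antioxidant response, one of -0.15. The median of this list was -0.04. Among 25 tested kinases and factors that induce immediate early genes 0 passed in edgeR's quasi-likelihood test (8 at an unadjusted p under 0.05, and 2 by DESeq2), with a median of -0.03. Elk3, a ternary complex factor that acts with serum response factor, had a log2 fold change of -0.39 (edgeR adjusted p = 0.0727), and its relative Elk4 one of -0.30 (edgeR adjusted p = 0.136). Mapk3, which encodes the kinase ERK1, had one of 0.21 (edgeR adjusted p = 0.277). The kinase genes Braf and Mapkapk2 had values of 0.33 and -0.16 (edgeR adjusted p = 0.102 and 0.313).

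Chaperone genes, which respond to heat and to tissue digestion, did not pass either. Of 14 tested 0 were called by edgeR's quasi-likelihood test (2 at an unadjusted p under 0.05, and 1 by DESeq2), and the median log2 fold change was -0.05. Over all genes these shares were 0.789%, 17.5% and 5.56%. Hspa8 was at 1208 ± 81.1 CPM in Lgmn KO, against 1193 ± 17.7 CPM in WT (SD, n = 3 each). Hspa5, the chaperone of the endoplasmic reticulum, was at 429, 658 and 593 CPM in Lgmn KO and at 751, 848 and 769 CPM in WT, apart in every library (log2 fold change -0.50, edgeR adjusted p = 0.156). Hsp90ab1 and Hspb1 had log2 fold changes of -0.18 and -0.60 (edgeR adjusted p = 0.277 and 0.299). Among 18 textbook targets of AP-1 or EGR factors in macrophages, all tested, 2 fell and 0 rose, against 0.789% called of all genes. Mmp9, a gelatinase, was at 5.78 ± 0.722 CPM in Lgmn KO, against 30.7 ± 4.46 CPM in WT (SD, n = 3 each). It fell by 2.41 on the log2 scale (edgeR adjusted p = 0.00226) and kept its call in all 12 alternatives. The cytokine gene Il1b, at 0.571 ± 0.132 CPM in Lgmn KO, against 4.14 ± 1.63 CPM in WT (SD, n = 3 each), fell by 2.84 (edgeR adjusted p = 0.0277). It lost its call without any 1 library other than WT replicate 1 (edgeR adjusted p between 0.0585 and 0.141). Mmp14, a membrane-bound collagenase, had a log2 fold change of -0.37 (edgeR adjusted p = 0.0555), whereas Spp1, which encodes osteopontin, had one of 0.31 (edgeR adjusted p = 0.214) and Mmp12, the macrophage elastase, one of -0.37 (edgeR adjusted p = 0.248). The median of these targets was -0.47, with 16 of 18 values negative. At an unadjusted p under 0.05 there were 13 of the 18 (2 higher, 11 lower), against 17.5% of all tested genes. DESeq2 called 8, where it called 5.56% of the genes it tested. Genes of this list respond to many other factors, and several are inflammatory genes. The list was also chosen with earlier results of these data known, so its counts are no measure of AP-1 or EGR activity.

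**Figure D4:**
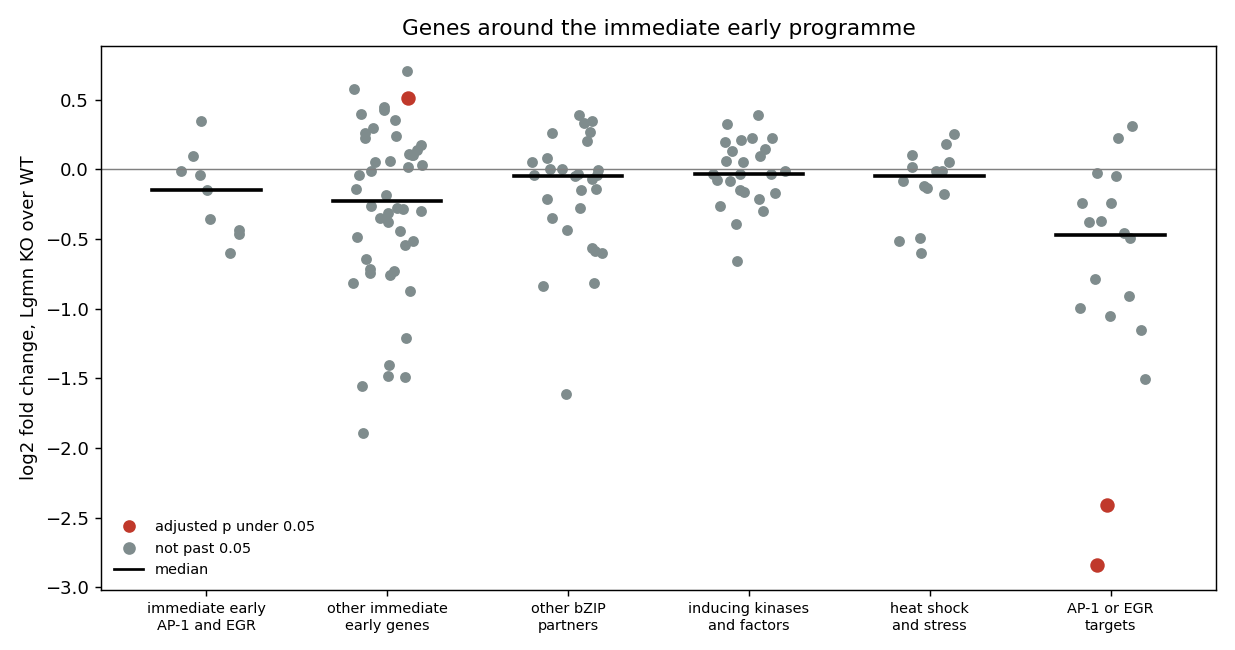
Log2 fold change, Lgmn KO divided by WT, for every tested gene of the immediate early AP-1 and EGR set and of 5 related lists (grey points, red where the adjusted p was under 0.05, black lines for medians). The corepressors of EGR are not drawn. Medians lie between -0.03 and -0.47, and the genes that passed are Plk2, Mmp9 and Il1b.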

How the data were processed

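Messenger RNA of sorted cardiac macrophages was sequenced in 3 Lgmn KO and 3 WT libraries. Per the file headers, the deposited table holds whole-number read counts and FPKM values per gene and library, and the authors' log2 fold change, p-value and q-value per gene, which were only copied. The submitters' processing notes list HISAT2, TopHat, TopHat2 2.0.9 and the human build hg38, but 98.8% of the gene IDs are in the mouse annotation GENCODE M21, and 80.8% of these have the same position there, so coordinates are read as GRCm38. Read counter and strand setting: not given in the sources used here.

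Counts were filtered with filterByExpr, scaled by TMM and tested with edgeR 4.0.16 (quasi-likelihood, Lgmn KO against WT, no covariate; R 4.3.3), with Benjamini-Hochberg adjustment over all tested genes and a threshold of 0.05. Intervals use the standard error from the F statistic. CPM per kilobase divides by merged GENCODE M21 exons, or by the span in the table where the FPKM length equals it (Jun, Junb, Jund and Ier2). Alternatives were DESeq2 1.42.0, limma-voom 3.58.1, other scalings, no filter, a replicate block and leaving out each library. From each related list, genes were named by the 3 smallest p and the 2 highest means. For likeness, the 3 genes with the smallest root mean square difference of centred log2 CPM (prior count 2) were taken among genes of at least 5 CPM. Members, lists and tests were chosen with earlier results of these data known. The procedures were tested on simulated data. Between libraries of a group, chi-square per degree of freedom was 14.0 to 42.7 (sampling noise alone gives about 1), so none was treated as a second deposit of another.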

Additional observations from a re-analysis of the deposited data

How the results depend on the processing

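Lgmn passed in all 12 alternatives. The number of genes called (99) was 780 with DESeq2, 340 with limma-voom with sample weights, 165 with library sizes only, 318 without a filter on low counts and 39 with the replicate block. Leaving out Lgmn KO replicate 1, 2 or 4 gave 26, 6 or 27, and leaving out WT replicate 1, 2 or 3 gave 639, 35 or 14. The number of the 10 immediate early genes called (0) was 2 with DESeq2 and with limma-voom (Fosl2 and Junb), 1 with library sizes only and without a filter (Fosl2), and 0 to 3 when 1 library was left out, with Fosl2, Junb and Atf3 called without WT replicate 1. Genes called over all related lists (3) numbered 24, 15, 7 and 12 in the first 4 of these alternatives, 1 with the replicate block (Mmp9, while Plk2 had an edgeR adjusted p of 0.253 and Il1b of 0.0564), and 1 to 22 without 1 library. The block called 0 members. With RLE size factors edgeR called 90 genes, 0 members and 3 genes of the related lists. Numbers 1 and 2 are shared by both genotypes. Deviations from the group mean correlated at 0.12 for number 1 and 0.08 for number 2 across tested genes, which are not independent. Between Lgmn KO and WT libraries of unlike number the correlations ran from -0.17 to 0.11. Nothing in the labels says that a number pairs libraries. Jun changed sign with no filter (0.0011), with the replicate block (0.029) and among the fits without 1 library (-0.046 to 0.020), as did Egr2 (-0.12 to 0.033, this highest value without Lgmn KO replicate 4). All other tested members kept their direction in all 12 alternatives. Causes of these changes were not tested. Fosb had the fewest counts and was not tested. Egr1 had the fewest of the tested members and also their largest SD of log2 CPM in Lgmn KO (0.43).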

Other observations

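The order of libraries within a genotype was similar for several of the 9 tested genes. Fos, Fosl2, Egr1 and Ier2 were lowest in replicate 1 and highest in replicate 2 of both Lgmn KO and WT. Replicate 1 was lowest in both groups for these 4 of 9 members and for 15.5% of all tested genes. Jund was highest in replicate 1 of both groups, a pattern of 1 of the 9 members and of 15.8% of all tested genes. The spread differed among genes. In Lgmn KO the SD of log2 CPM ran from 0.05 for Atf3 to 0.43 for Egr1 (median 0.13, against 0.14 over all tested genes), and in WT from 0.03 for Jund to 0.36 for Fos (median 0.09, against 0.15).

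The profiles most like those of the 3 members with separate groups, by root mean square difference of centred log2 CPM over the 6 libraries among 9563 genes, were those of Susd6 for Fosl2 (0.05), Sla for Junb (0.03) and Rhov for Atf3 (0.01). Among the members themselves Jun and Egr2 differed least (0.10), with Fosl2 and Junb next (0.10). A small value of this kind also arises between genes that vary little. Among the WT libraries, replicate 3 was the highest for Jun and the lowest for Egr2, so their order was not shared. None of these likenesses was tested.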
